A study of Homo sapiens with 6 samples.

Results

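The transforming growth factor beta (TGF-β) superfamily was examined in the human line MDA-MB-231, which is triple-negative breast cancer of mesenchymal character, after knockdown of MIR100HG, a long non-coding RNA that is also the host transcript of miR-100, let-7a-2 and miR-125b-1. The members were 58 genes named for their place in this pathway, and all 58 were found by gene identifier among the 27745 genes listed. Of these, 52 passed the filter on low counts and were tested together with the other genes, 15372 in all. The remaining 6 (BMP7, BMP8A, LEFTY2, NODAL, GREM1 and CHRD) had a mean of under 9 counts per sample and were not tested. Cells carried a lentiviral pLKO.1 vector with a control shRNA (sh-TRC) or with 1 of a pair of shRNAs against MIR100HG (sh-MIR100HG-1 and sh-MIR100HG-2). The methods give 72 h from infection to collection, and each of the 3 groups had 2 replicates, 6 samples in all. The comparison asks what loss of MIR100HG does to gene expression in these cells. The 4 knockdown samples share the same 2 controls and the same parental line, so a difference seen with both shRNAs still rests on 2 control samples.

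TGF-β, activins, nodal and bone morphogenetic proteins (BMPs) are secreted dimers that bring type II receptor kinases together with type I receptor kinases. The type I receptors phosphorylate receptor-regulated SMADs, which join SMAD4 and enter the nucleus, where SMAD2 and SMAD3 serve TGF-β and activin and SMAD1, SMAD5 and SMAD9 serve BMPs. Latency proteins, secreted traps, co-receptors, inhibitory SMADs and ubiquitin ligases set how strong the signal is, and in breast cancer the pathway is known both for growth arrest and for invasion.

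The sequences below are shown because they define what separates the groups: the sites in MIR100HG and the guide strands that read them. Positions are in GRCh37, on the minus strand of chromosome 11 like MIR100HG itself. The target of sh-MIR100HG-1 lay at chr11:121962132-121962152, inside an exon of 32 of 107 annotated MIR100HG transcripts, and that of sh-MIR100HG-2 at chr11:121961961-121961981, inside an exon of 30. Capitals mark the seed, bases 2 to 8 of the guide.
sh-MIR100HG-1 target: ttcctctgtttgtacttaaat
sh-MIR100HG-1 guide: aTTTAAGTacaaacagaggaa
sh-MIR100HG-2 target: gagagtgacctacagaataaa
sh-MIR100HG-2 guide: tTTATTCTgtaggtcactctc

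The targeted RNA was read first as a check of the labels. MIR100HG was at 41.9 and 58.5 CPM (reads of a gene in parts per 1e6 of the sample's reads, after TMM scaling in edgeR) in the sh-TRC samples, 15.2 and 13.2 with sh-MIR100HG-1, and 16.6 and 10.4 with sh-MIR100HG-2. Each knockdown sample was below either control. The log2 fold change (log2FC) was -1.86 ± 0.25 (SE) and the adjusted p over all genes 0.381 by edgeR's quasi-likelihood test, with an unadjusted p under 0.05.

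Total counts per sample ranged from 43804736 to 64588388. The mesenchymal markers VIM, CD44, MSN and AXL summed to between 4650 and 5980 CPM in every sample. Of the genes taken as low in this line, PGR had at most 1 count, and ESR1, CDH1 and EPCAM were low. ERBB2 and KRT8 were present, and the list summed to 815 to 1280 CPM. ESR1 had 140 counts in sh-TRC replicate 2 and 185 in sh-MIR100HG-1 replicate 1, against 6 to 25 in the others. CDH1 had 415 and 332 counts in these samples, against 68 to 148 elsewhere. CDKN2B, in the wider pathway list below, had 22 and 18 counts in the same samples and 0 elsewhere. The reason was not tested. The endothelial markers CDH5 and VWF summed to under 1 CPM, smooth muscle and fibroblast markers to 15.5 to 26.4 CPM, while 1 immune marker, CD68, was present at a level that made up most of the 165 to 256 CPM of its list. The share of counts from mitochondrial genes was 1.52% and 1.84% with sh-MIR100HG-2 and 2.41% to 3.46% in the other samples.

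No member passed an adjusted p of 0.05 in any comparison. In edgeR's quasi-likelihood test 0 of 52 members were called for both shRNAs against sh-TRC, as were 0.0% of all genes, and the same 0 and 0.0% held for each shRNA alone and for the shRNAs against each other. With DESeq2, 2 members were called for both shRNAs (TGFBR2 and ACVR2B), 3 for sh-MIR100HG-1 (FSTL3 besides these), 4 for sh-MIR100HG-2 (INHBB, TGFBR2, ACVR2B and ID3) and 1 between the shRNAs (INHBB). DESeq2 called 0.91%, 0.468%, 1.14% and 0.711% of all genes with an adjusted p in these comparisons. With the likelihood ratio test of edgeR the counts were 3, 2, 4 and 1, where 0.709%, 0.221%, 0.787% and 0.592% of all genes were called. Without the filter on low counts they were 4, 4, 4 and 2, against 1.84%, 1.06%, 2.42% and 3.18% of all genes. All directions below are therefore given as values.

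At an unadjusted p under 0.05, 9 of 52 members differed for both shRNAs against sh-TRC, where 7.68% of all genes did. TGFBR2, ACVR2B and TGFBR3 were higher, and INHBB, BMP4, LEFTY1, LTBP3, FSTL3 and ID3 were lower. The median log2FC of the 52 members was -0.02, against -0.04 for all genes tested, and 26 members were higher and 26 lower. For 11 of 52 members (21.2%) all 4 knockdown samples lay beyond both controls, against 17.5% of all genes. The 6 above were GDF5, TGFBR2, ACVR2A, ACVR2B, TGFBR3 and SMAD4, and the 5 below were INHA, BMP4, LEFTY1, LTBP3 and ID3. With 4 samples against 2, an exact permutation test of a single gene cannot go below p = 0.0667. In bulk RNA, fewer cells of a kind and less RNA per cell cannot be told apart.

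**Figure D1:**
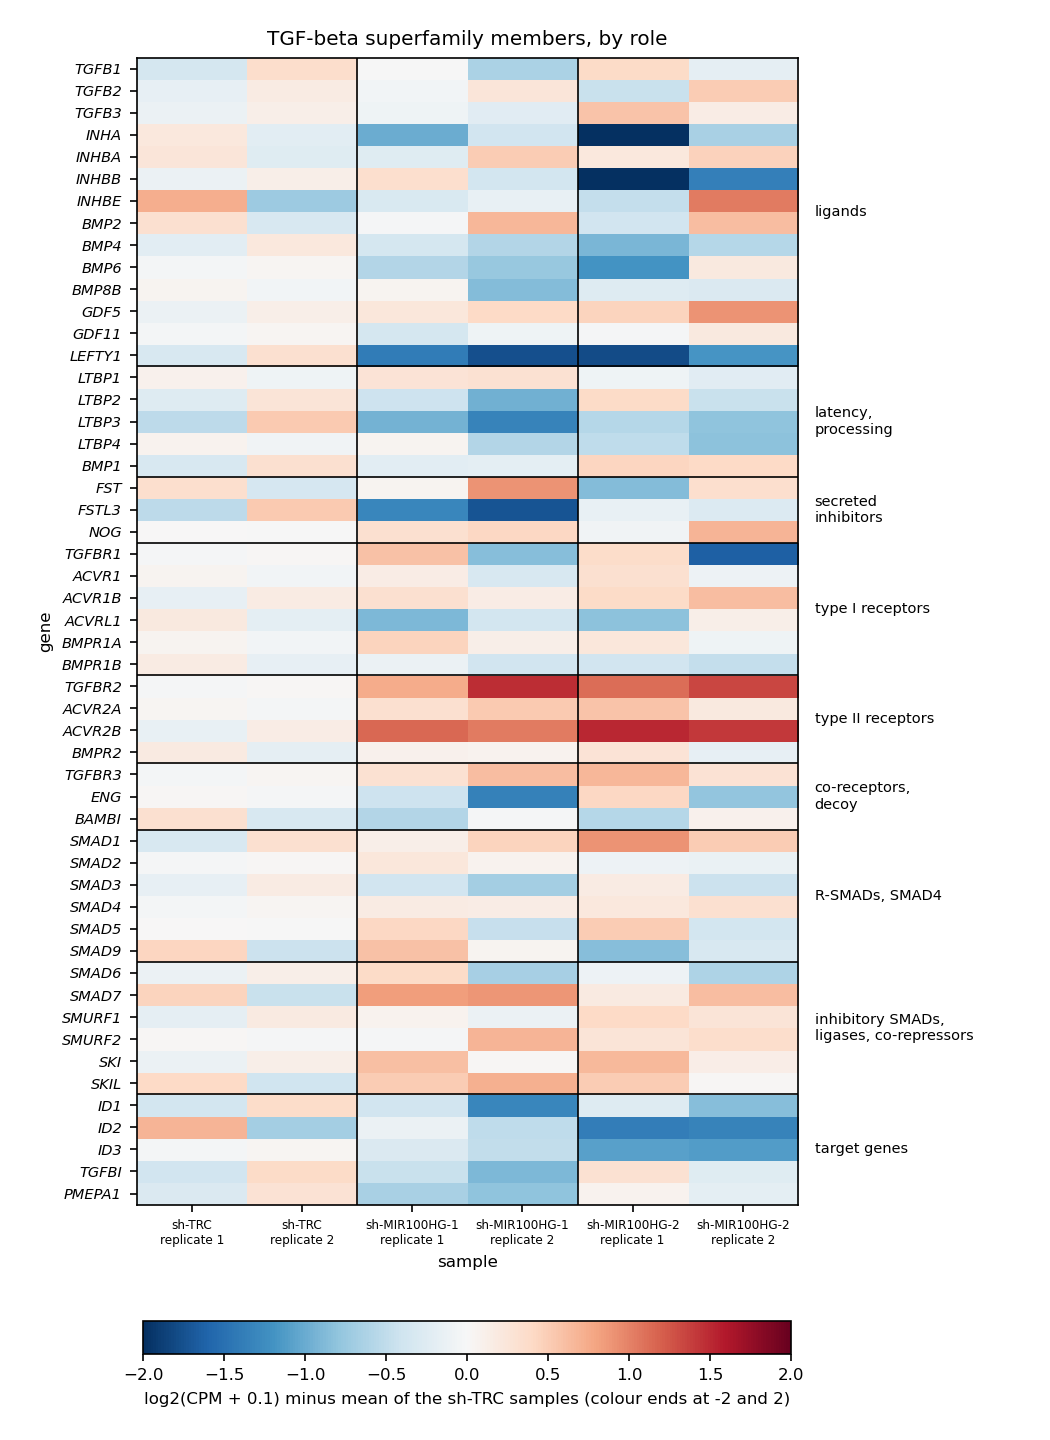
Each row is 1 of the 52 members tested, grouped by role, and each column is a sample; colour is log2(CPM + 0.1) minus the mean of the 2 sh-TRC samples, with the scale ending at -2 and 2. TGFBR2 and ACVR2B are red in all 4 knockdown columns, LEFTY1 is blue in all 4, and INHBB is dark blue in the sh-MIR100HG-2 columns alone.

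Among the ligands, 14 were tested. In control cells BMP4 and TGFB1 were the most abundant by length, with means of 42.3 and 38.8 RPKM (CPM divided by annotated exon length in kilobases), followed by TGFB2 at 21.9 RPKM. TGFB3, BMP8B, INHA, INHBE, BMP6, GDF5 and LEFTY1 lay under 1 RPKM. For both shRNAs 5 ligands were higher and 9 lower, with a median log2FC of -0.09.

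BMP4, which binds BMP receptors and drives SMAD1 and SMAD5, was at 112 and 149 CPM in the controls. It was at 101 and 86.1 CPM with sh-MIR100HG-1, and at 68.7 and 86.5 CPM with sh-MIR100HG-2. Every knockdown sample was below the lower control. The log2FC was -0.61 ± 0.20 (SE; adjusted p = 0.56, edgeR quasi-likelihood). Its unadjusted p was no longer under 0.05 without sh-TRC replicate 2, at -0.40, or without sh-MIR100HG-1 replicate 2, at -0.56.

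LEFTY1, an antagonist of nodal signalling, was counted 16 and 31 times in the controls, 6 and 2 times with sh-MIR100HG-1, and 2 and 6 times with sh-MIR100HG-2. No knockdown sample reached either control, but these counts are small. Its log2FC was -2.39 ± 0.64 (SE; adjusted p = 0.476, edgeR). Without sh-TRC replicate 2 it was -1.92 and its unadjusted p was no longer under 0.05. LEFTY2 is a close paralog, so its reads are not certain to be its own.

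INHBB, the beta B subunit of activin B, separated the shRNAs. It was at 24.3 and 28.3 CPM in the controls, 33.0 and 20.2 CPM with sh-MIR100HG-1, and 6.0 and 10.1 CPM with sh-MIR100HG-2. The sh-MIR100HG-1 samples lay on both sides of the controls, and the sh-MIR100HG-2 samples were below all others. The log2FC against sh-TRC was -1.71 ± 0.35 (SE) for sh-MIR100HG-2 (adjusted p = 0.406, edgeR) and 0.02 ± 0.34 for the first shRNA. The direct comparison of sh-MIR100HG-2 with sh-MIR100HG-1 gave -1.73 ± 0.35 (adjusted p = 0.509). The value for both shRNAs, -0.84, is thus a mean of unlike groups.

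None of the 3 TGF-β genes had a p under 0.05. TGFB1 was at 95.7 and 156 CPM in the controls and between 78.8 and 160 CPM in the knockdown samples, with a log2FC of -0.12 ± 0.28 (SE). TGFB2 had a log2FC of 0.09 ± 0.28 and TGFB3 of 0.10 ± 0.31. INHBA, whose product forms activin A, was at 18.0 and 12.9 CPM in the controls and between 12.9 and 21.6 CPM after knockdown. The log2FC of the other ligands (BMP2, BMP6, BMP8B, GDF11 and INHBE) ranged from -0.78 for BMP6, at 2 to 14 counts per sample, to 0.25 for BMP2, and BMP8B has a close paralog in BMP8A with which it could share reads.

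GDF5 and INHA lay beyond both controls at low counts. GDF5 was at 0.745 and 0.901 CPM in the controls and at 0.979 to 1.62 CPM after knockdown. Its raw counts, 40 and 53 against 47 to 81, did overlap. Its log2FC was 0.54 ± 0.42 (SE), and 35.2% of its exon bases lie opposite GDF5-AS1, from which unstranded counting would not separate it. INHA, the alpha subunit of inhibin, had 24 and 18 counts in the controls and 9, 11, 0 and 10 after knockdown. Its log2FC of -1.40 ± 0.86 had an adjusted p of 0.737 by edgeR. Without sh-MIR100HG-2 replicate 2 it was -4.15 with an unadjusted p under 0.05, which rests on the sample with 0 counts.

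The latency and processing class holds the latent TGF-β binding proteins and BMP1, a protease that cleaves several extracellular precursors. LTBP3, which anchors latent TGF-β in the matrix, was at 70.1 and 145 CPM in the controls, 52.1 and 39.7 CPM with sh-MIR100HG-1, and 67.7 and 57.5 CPM with sh-MIR100HG-2. Every knockdown sample was under either control, though sh-MIR100HG-2 replicate 1 was close to sh-TRC replicate 1. The log2FC was -1.0 ± 0.29 (SE; adjusted p = 0.494, edgeR). Without sh-TRC replicate 2, the higher control, it was -0.39 and no longer at an unadjusted p under 0.05.

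LTBP4, of the same family, was at 126 and 115 CPM in the controls, 125 and 80.2 with sh-MIR100HG-1, and 84.5 and 68.3 with sh-MIR100HG-2. Only the second shRNA gave a p under 0.05, with a log2FC of -0.66 ± 0.26 (SE; adjusted p = 0.545, edgeR), and the shRNAs differed by -0.42 ± 0.26 (adjusted p = 0.596). BMP1 was at 78.3 and 79.1 CPM with sh-MIR100HG-1 and 122 and 120 CPM with sh-MIR100HG-2, while the controls, at 72.7 and 113 CPM, spanned most of that range. Its log2FC between the shRNAs was 0.62 ± 0.25 (adjusted p = 0.509). LTBP1 and LTBP2 had log2FC of 0.06 ± 0.18 and -0.35 ± 0.29 for both shRNAs.

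Of the secreted inhibitors, 3 were tested. FSTL3, a follistatin-like protein that binds activins, was at 69.6 and 143 CPM in the controls, 40.5 and 30.2 with sh-MIR100HG-1, and 90.0 and 82.1 with sh-MIR100HG-2. The first shRNA lay below both controls and the second between them. Against sh-TRC the log2FC was -1.59 ± 0.34 (SE) for sh-MIR100HG-1 (adjusted p = 0.714, edgeR) and -0.30 ± 0.34 for the second (adjusted p = 0.803). Between the shRNAs FSTL3 differed by 1.28 ± 0.34 (adjusted p = 0.509). For both shRNAs the log2FC was -0.95 ± 0.28, and -0.34, no longer at an unadjusted p under 0.05, without sh-TRC replicate 2. FST, the activin antagonist follistatin, ranged from 62.4 to 100 CPM in the controls and from 43.1 to 147 CPM after knockdown, and NOG, a BMP trap, had a log2FC of 0.37 ± 0.25.

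**Figure D2:**
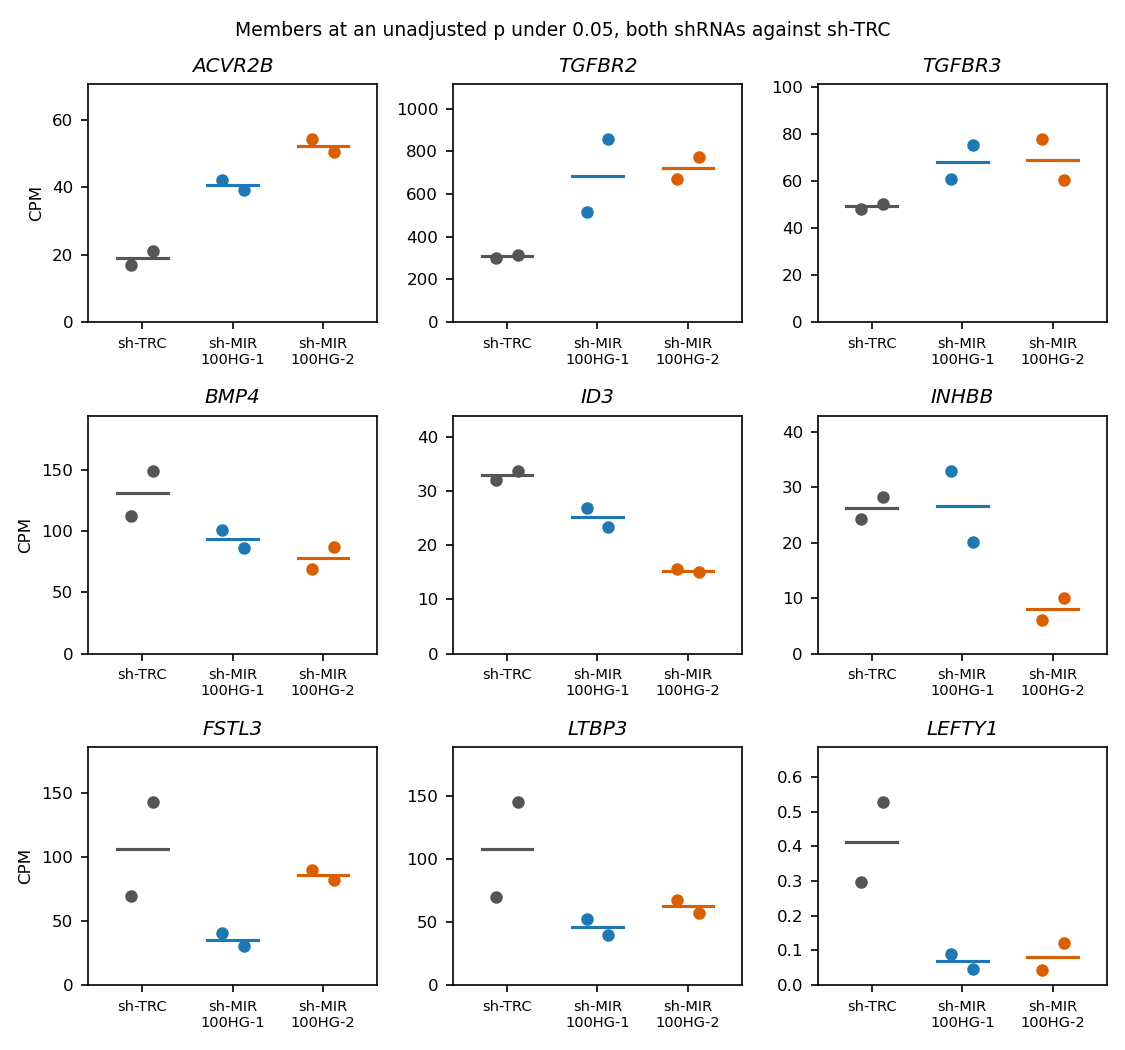
CPM on a linear axis from 0 for the 9 members at an unadjusted p under 0.05 for both shRNAs against sh-TRC; points are single samples and bars the mean of 2. ACVR2B, TGFBR2 and TGFBR3 sit above both controls in all 4 knockdown samples, INHBB is low only with sh-MIR100HG-2, FSTL3 is lowest with sh-MIR100HG-1, and the control points of LTBP3 (70.1 and 145 CPM) and FSTL3 (69.6 and 143 CPM) lie far apart.

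All 4 type II receptors tested were higher on average after knockdown, with a median log2FC of 0.81, and 3 of 4 lay above both controls in every knockdown sample, as did 8.4% of all genes. TGFBR2 and ACVR2B had an unadjusted p under 0.05, and ACVR2A and BMPR2 did not. TGFBR2, the receptor that binds TGF-β and activates TGFBR1, was at 301 and 314 CPM in the controls. It was at 517 and 857 CPM with sh-MIR100HG-1 and at 670 and 776 CPM with sh-MIR100HG-2. The lowest knockdown sample was above the higher control, and the fitted fold was 2.29. The log2FC was 1.20 ± 0.24 (SE; adjusted p = 0.381, edgeR), and it ranged from 0.99 to 1.36 when each sample in turn was left out.

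ACVR2B, which binds activins and several growth and differentiation factors, was at 17 and 21.1 CPM in the controls, 42.1 and 39.1 CPM with sh-MIR100HG-1, and 54.3 and 50.4 CPM with sh-MIR100HG-2. Here the replicates were close and the groups far apart. The fitted fold was 2.42 and the log2FC 1.28 ± 0.20 (SE; adjusted p = 0.381, edgeR), with a range of 1.13 to 1.44 on leaving out single samples. By shRNA the log2FC was 1.09 ± 0.23 and 1.46 ± 0.23, and the difference between them, 0.37 ± 0.22, had an adjusted p of 0.593.

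ACVR2A, its closest relative, was at 8.21 and 7.71 CPM in the controls and between 9.13 and 11.9 CPM after knockdown, a log2FC of 0.41 ± 0.25 (SE; adjusted p = 0.728, edgeR). BMPR2, the type II receptor for BMPs, was at 75.1 and 58.7 CPM in the controls and 59.2 to 80.1 CPM after knockdown, so these groups overlapped. By length TGFBR2 was far the most abundant receptor of either type, at a control mean of 65.4 RPKM against 13.9 for TGFBR1, 5.62 for BMPR2 and 1.21 for ACVR2B.

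Of 6 type I receptors tested, 3 were higher and 3 lower, with a median log2FC of -0.06, and none had a p under 0.05 in any comparison. TGFBR1, the partner of TGFBR2, was at 93.3 and 97.0 CPM in the controls, but at 143 and 52.8 CPM with sh-MIR100HG-1 and 123 and 30.6 CPM with sh-MIR100HG-2. Within each shRNA the replicates thus fell on opposite sides of the controls, and the log2FC of -0.13 ± 0.53 (SE) says little about its direction: it was -0.80 without sh-MIR100HG-2 replicate 1 and 0.20 without replicate 2. ACVR1B, an activin and nodal receptor, was at 25.4 and 31.8 CPM in the controls and 31.4 to 43.7 CPM after knockdown (log2FC 0.36 ± 0.21, adjusted p = 0.718, edgeR). The BMP type I receptors ACVR1, BMPR1A and BMPR1B had values of 0.02 ± 0.23, 0.19 ± 0.20 and -0.35 ± 0.30, and ACVRL1, known from endothelium, -0.47 ± 0.39 at 1.93 to 4.21 CPM.

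Of the co-receptors, TGFBR3 (betaglycan), which presents TGF-β to TGFBR2 and serves inhibin, was at 48.2 and 50.5 CPM in the controls. It was at 61.1 and 75.4 CPM with sh-MIR100HG-1 and at 77.9 and 60.5 CPM with sh-MIR100HG-2. All knockdown samples were higher than both controls, by a log2FC of 0.48 ± 0.20 (SE; adjusted p = 0.642, edgeR). It was no longer at an unadjusted p under 0.05 with the likelihood ratio test, without the filter on low counts, or without any one of 4 samples (either control, sh-MIR100HG-1 replicate 2 or sh-MIR100HG-2 replicate 1). ENG (endoglin) was lower in value, at -0.44 ± 0.42, and BAMBI, a decoy receptor without a kinase, had a log2FC of -0.27 ± 0.29.

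**Figure D3:**
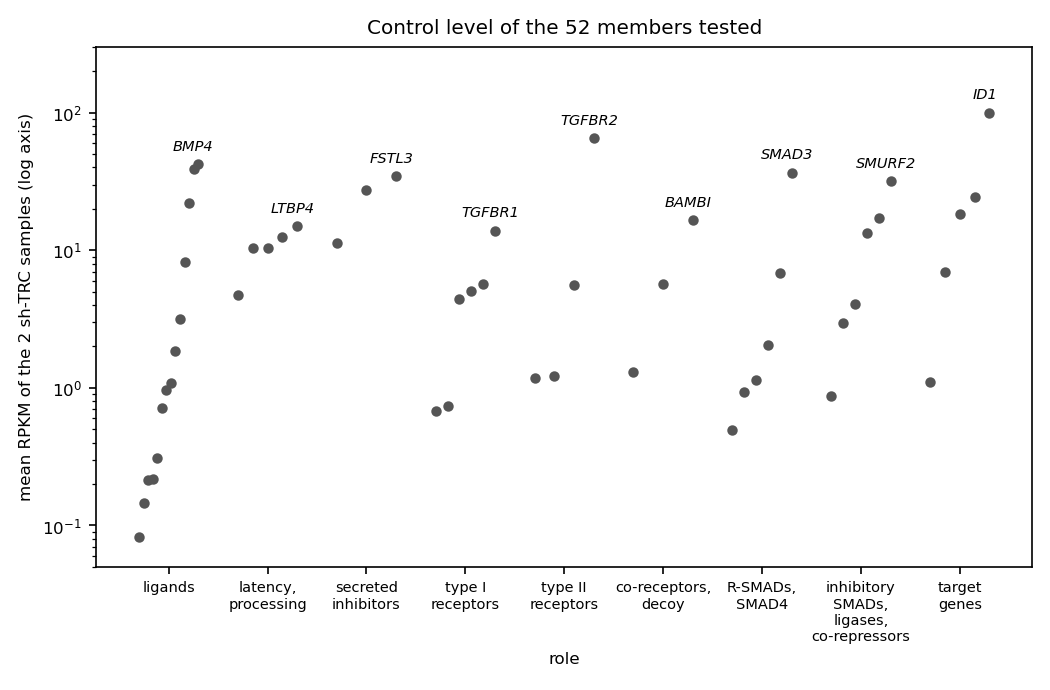
Mean RPKM of the 2 sh-TRC samples on a log axis for the 52 members tested, by role, with the most abundant member of each role named. Levels span from 0.083 RPKM (BMP6) to 99.8 RPKM (ID1), and TGFBR2 stands at 65.4 RPKM while the other type II receptors are at 5.62 RPKM or less.

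Of 6 receptor-regulated SMADs and SMAD4 tested, 4 were higher and 2 lower in the pooled comparison of both shRNAs with sh-TRC, none at a p under 0.05, and their log2FC ranged from -0.32 to 0.47. The samples of the shRNAs lay apart for 4 of these 6 (SMAD1, SMAD2, SMAD4 and SMAD9), as they did for 43.9% of all genes. SMAD3, the most abundant by length at 36.7 RPKM in the controls, was at 297 and 373 CPM there, 254 and 207 CPM with sh-MIR100HG-1, and 373 and 247 CPM with sh-MIR100HG-2. SMAD4, the common partner, was at 26.2 and 27.8 CPM in the controls and 30.1, 30.0, 31.4 and 33.7 CPM after knockdown. Its samples did not overlap, but the log2FC was only 0.21 ± 0.19 (SE; adjusted p = 0.834, edgeR). SMAD5 followed TGFBR1 in its spread, at 80.4 and 43.8 CPM with sh-MIR100HG-1 and 85.7 and 46.6 CPM with sh-MIR100HG-2, around controls of 60.6 and 59.6 CPM. SMAD1 had a log2FC of 0.47 ± 0.30 and SMAD2 of 0.02 ± 0.18, while SMAD9, at 1.45 to 4.08 CPM, had one of -0.18 ± 0.40 (0.29 with the first shRNA and -0.64 with the second).

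The class of inhibitory SMADs, ubiquitin ligases and co-repressors leaned upward in value. This did not hold for every negative regulator inside the cell: PMEPA1, placed with the target genes, was at a log2FC of -0.42 ± 0.22 (SE). Of 6 tested in the class, 5 were higher for both shRNAs, with a median log2FC of 0.35. None had a p under 0.05 in that comparison. SMAD7, an inhibitory SMAD induced by TGF-β, was at 14.3 and 7.61 CPM in the controls, 18.7 and 19.3 with sh-MIR100HG-1, and 11.8 and 16.1 with sh-MIR100HG-2. Its log2FC for sh-MIR100HG-1 was 0.79 ± 0.34 (SE; adjusted p = 0.719, edgeR), and for both shRNAs it was 0.57 ± 0.30, or 1.1 without sh-TRC replicate 1 and 0.18 without sh-TRC replicate 2. SMURF2, a ubiquitin ligase that acts on receptors and SMADs, had a log2FC of 0.34 ± 0.23, and SMURF1 of 0.14 ± 0.19. The co-repressors SKI and SKIL stood at 0.37 ± 0.24 and 0.40 ± 0.27, and SMAD6, an inhibitory SMAD of the BMP branch, at -0.19 ± 0.34.

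In the pooled comparison with sh-TRC, all 5 target genes were lower in value, with a median log2FC of -0.70. With sh-MIR100HG-2 alone 4 of 5 were lower, and TGFBI had a log2FC of 0.0. ID3, an inhibitor of basic helix-loop-helix factors that BMP-SMADs induce, was at 32.0 and 33.7 CPM in the controls, 26.9 and 23.3 with sh-MIR100HG-1, and 15.5 and 15.1 with sh-MIR100HG-2. The groups stood in 3 steps without overlap. For both shRNAs the log2FC was -0.75 ± 0.19 (SE; adjusted p = 0.447, edgeR), with a range of -0.80 to -0.70 on leaving out single samples. Set against the first shRNA, the second was lower by a log2FC of -0.71 ± 0.23 (adjusted p = 0.509).

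ID1 and ID2, of the same family, were less even. ID1, by length the most abundant of all members at 99.8 RPKM in the controls, was at 92.0 and 154 CPM there, 90.8 and 47.9 with sh-MIR100HG-1, and 99.7 and 65.6 with sh-MIR100HG-2. Its log2FC was -0.70 ± 0.32 (SE; adjusted p = 0.665, edgeR), and -0.28 without sh-TRC replicate 2. ID2 was at 3.54 and 1.31 CPM in the controls, 1.99 and 1.49 with sh-MIR100HG-1, and 0.772 and 0.799 with sh-MIR100HG-2. Its log2FC was -1.62 ± 0.57 for sh-MIR100HG-2 (adjusted p = 0.517), and for both shRNAs it moved from -1.05 to -0.16 without sh-TRC replicate 1, the higher control.

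PMEPA1, a TGF-β target that holds back SMAD2 and SMAD3, was at 31.4 and 46.8 CPM in the controls, 24.4 and 21.9 with sh-MIR100HG-1, and 40.4 and 33.4 with sh-MIR100HG-2. It was lower with the first shRNA only, at a log2FC of -0.75 ± 0.26 (SE; adjusted p = 0.714, edgeR), and the shRNAs differed by 0.67 ± 0.26 (adjusted p = 0.509). TGFBI, a matrix protein named for its induction by TGF-β, had values of -0.71 ± 0.32 for the first shRNA (adjusted p = 0.72) and 0.00 ± 0.32 for the second. Without sh-TRC replicate 2 the value for both shRNAs was 0.07 for TGFBI and -0.10 for PMEPA1.

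The shRNAs were also taken one by one. With sh-MIR100HG-1, 7 of 52 members had an unadjusted p under 0.05, against 6.87% of all genes: TGFBR2, ACVR2B and SMAD7 were higher, and LEFTY1, LTBP3, FSTL3 and PMEPA1 lower. With sh-MIR100HG-2 there were 8, against 8.86% of all genes: TGFBR2 and ACVR2B were higher, and INHBB, BMP4, LEFTY1, LTBP4, ID2 and ID3 lower. TGFBR2, ACVR2B and LEFTY1 were in both sets, which were measured against the same 2 controls. Between the shRNAs 5 members had a p under 0.05 (INHBB and ID3 lower with sh-MIR100HG-2, BMP1, FSTL3 and PMEPA1 higher), against 9.45% of all genes. The samples of the 2 shRNAs did not overlap for 20 of 52 members (38.5%), against 43.9% of all genes. The mitochondrial share, 1.52% and 1.84% with sh-MIR100HG-2 against 3.30% and 3.38% with sh-MIR100HG-1, differed along with these 5 genes, and its part in them was not tested.

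**Figure D4:**
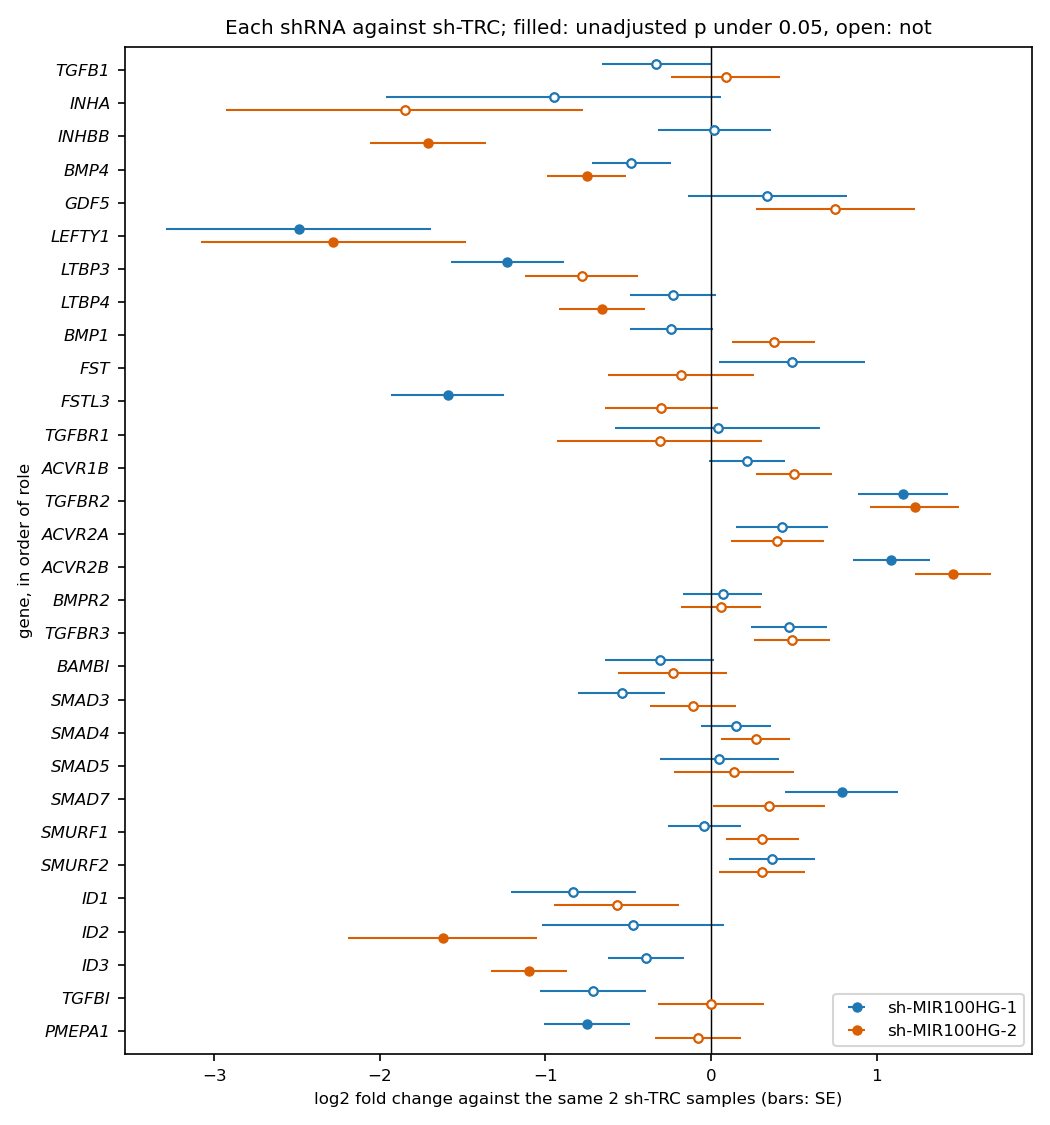
Log2FC of each shRNA against the same 2 sh-TRC samples for the 30 members named by the rule, with SE bars; filled points have an unadjusted p under 0.05. TGFBR2 (1.16 and 1.23) and ACVR2B (1.09 and 1.46) lie to the right for both shRNAs, whereas INHBB (0.02 and -1.71) and FSTL3 (-1.59 and -0.30) part.

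The guides themselves could pair with other transcripts through their seeds, so the 7-base match to each seed was counted in the 3′UTRs of the members (Ensembl canonical transcripts of GENCODE v44 lifted to GRCh37). All 52 tested members had a 3′UTR, with a median length of 1803 bases against 1279 bases for the 13921 tested genes that had one. The match to the sh-MIR100HG-1 seed was present in 17 of 52 members (32.7%) and in 19.2% of all these genes, and that to the sh-MIR100HG-2 seed in 11 (21.2%) and 20.3%. None of the 6 members lower for both shRNAs held either match. Of these, BMP4, LEFTY1, LTBP3 and ID3 have short 3′UTRs of 296 to 521 bases, and INHBB and FSTL3 have 1929 and 1677 bases. None of the 4 lower with sh-MIR100HG-1 and none of the 6 lower with sh-MIR100HG-2 held the match to that shRNA's own guide. Of the 3 members higher for both shRNAs, TGFBR2 held neither match, ACVR2B held 1 for sh-MIR100HG-2 in a 3′UTR of 9810 bases, and TGFBR3 held 1 for sh-MIR100HG-1 in one of 3396 bases. Whether pairing through the seed took place was not tested.

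The same count was made for the microRNAs that MIR100HG hosts, whose own levels these counts do not give. By qPCR, the study reported no change in these microRNAs when MIR100HG was overexpressed, which is not the knockdown examined here. Their mature sequences (RefSeq) are shown with the seed in capitals, and they share no seed.
let-7a-5p: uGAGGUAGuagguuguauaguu
miR-125b-5p: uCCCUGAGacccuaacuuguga
miR-100-5p: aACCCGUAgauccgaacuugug

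Matches to the let-7a-5p seed were in 6 of 52 members (11.5%, against 10.8% of all genes with a 3′UTR), those to miR-125b-5p in 10 (19.2% against 16.1%), and that to miR-100-5p in 1, GDF11 (1.9% against 1.3%). Of the 3 members higher for both shRNAs, TGFBR3 held a match for let-7a-5p and for miR-125b-5p, ACVR2B held 1 for miR-125b-5p, and TGFBR2 held none. Their sites are printed with the match in capitals.
TGFBR3, let-7a-5p: tactgtaaCTACCTCatggtttg
TGFBR3, miR-125b-5p: gtgctgccCTCAGGGactgcacc
ACVR2B, miR-125b-5p: atgagttgCTCAGGGgcaagggc

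Promoters were searched on both strands for CAGACA and the palindrome GTCTAGAC, both known as SMAD3 and SMAD4 binding sequences, and for GGCGCC, a palindrome bound by BMP-responsive SMADs. No motif contains another. RefSeq windows of 300 bases (GRCh38.p14) around annotated starts were at hand for 49 of 58 members, 84 windows in all. CAGACA was in 18 of these windows (21.4%) against 16.9% of all 35116. GTCTAGAC was in 1 window, of SMAD6 (1.19%), against 0.202%, and GGCGCC in 22 (26.2%) against 19.2%. The windows below are those of the 2 receptors that were higher with both shRNAs, of BMP4, and of INHBB and FSTL3, 2 of the 5 members at an unadjusted p under 0.05 between the shRNAs, each placed by its unique match in GRCh37 and written 5′ to 3′ along the gene. For TGFBR2 the downstream of 2 windows is shown and for BMP4 the most downstream of 3. Capitals mark the motifs.
TGFBR2, chr3:30647843-30648142, plus strand: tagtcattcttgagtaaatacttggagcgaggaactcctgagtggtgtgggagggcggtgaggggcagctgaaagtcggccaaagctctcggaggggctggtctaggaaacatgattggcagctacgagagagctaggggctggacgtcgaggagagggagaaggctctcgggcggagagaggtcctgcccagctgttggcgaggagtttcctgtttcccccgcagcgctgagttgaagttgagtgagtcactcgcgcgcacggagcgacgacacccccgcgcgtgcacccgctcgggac
ACVR2B, chr3:38495131-38495430, plus strand: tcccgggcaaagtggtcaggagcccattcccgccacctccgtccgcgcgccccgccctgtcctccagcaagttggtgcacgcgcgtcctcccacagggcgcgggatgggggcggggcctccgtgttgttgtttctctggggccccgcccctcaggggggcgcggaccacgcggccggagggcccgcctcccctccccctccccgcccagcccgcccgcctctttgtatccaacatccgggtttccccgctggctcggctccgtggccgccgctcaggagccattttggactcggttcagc
BMP4, chr14:54420064-54420363, minus strand: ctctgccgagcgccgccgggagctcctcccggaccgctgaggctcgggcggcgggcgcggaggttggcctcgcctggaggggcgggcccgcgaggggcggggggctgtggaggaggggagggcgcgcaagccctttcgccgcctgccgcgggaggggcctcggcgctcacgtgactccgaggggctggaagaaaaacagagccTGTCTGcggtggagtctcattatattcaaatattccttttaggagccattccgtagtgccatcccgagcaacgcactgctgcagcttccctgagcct
INHBB, chr2:121103462-121103761, plus strand: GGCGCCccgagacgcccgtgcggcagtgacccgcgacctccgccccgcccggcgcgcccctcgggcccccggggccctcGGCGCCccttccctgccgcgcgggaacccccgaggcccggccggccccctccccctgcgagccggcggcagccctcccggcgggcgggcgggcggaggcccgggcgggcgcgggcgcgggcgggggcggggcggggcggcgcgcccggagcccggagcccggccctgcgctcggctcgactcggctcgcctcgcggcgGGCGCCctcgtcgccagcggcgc
FSTL3, chr19:676142-676441, plus strand: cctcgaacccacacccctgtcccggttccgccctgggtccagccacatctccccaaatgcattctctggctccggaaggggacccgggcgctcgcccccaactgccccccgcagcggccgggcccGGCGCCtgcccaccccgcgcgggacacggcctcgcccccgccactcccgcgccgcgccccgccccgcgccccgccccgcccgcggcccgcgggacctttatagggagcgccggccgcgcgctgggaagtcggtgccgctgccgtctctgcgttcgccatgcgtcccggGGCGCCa

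The windows of TGFBR2 and ACVR2B held none of the 3 motifs. Those of TGFBR3, ID3, LTBP3 and ID1, which are not printed, also held none. Members lower after knockdown thus occurred both with and without a motif. That of BMP4 shown held CAGACA once, on the opposite strand, and another BMP4 window, at chr14:54421719-54422018, held GGCGCC 2 times. The windows of INHBB and FSTL3 held GGCGCC 3 times and 2 times. These windows were 88.7% and 78.7% G and C. A match or its absence in these windows says nothing of factor binding.

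The wider pathway was read from a list of 86 further genes, of which 72 were tested. For both shRNAs, 5 of these were higher and 1 lower at an unadjusted p under 0.05, where 7.68% of all genes were at that p. Of the 72, 0 were called at an adjusted p of 0.05, and 13 (18.1%) lay beyond both controls, against 17.5% of all genes. Both counts are close to those shares, and the 6 genes are given as values. COL1A1, a collagen and TGF-β target, was at 20.2 and 17.2 CPM in the controls, 46.5 and 45.5 with sh-MIR100HG-1, and 62.6 and 78.0 with sh-MIR100HG-2. Its samples were well apart, at a log2FC of 1.6 ± 0.21 (SE; adjusted p = 0.381, edgeR). ATOH8, a BMP target, was at 6.57 and 4.96 CPM in the controls, 3.96 and 2.69 with sh-MIR100HG-1, and 1.15 and 1.20 with sh-MIR100HG-2, a log2FC of -1.54 ± 0.32 (adjusted p = 0.412). Like ID3 it stood in 3 steps, lowest with sh-MIR100HG-2.

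The others higher were FURIN, which cleaves the TGF-β precursor (0.45 ± 0.19), RGMB, a BMP co-receptor (0.64 ± 0.18), ZFYVE9, which brings SMAD2 and SMAD3 to the receptor (0.80 ± 0.19), and TGIF2, a co-repressor (0.61 ± 0.22). ZFYVE9 was at 29.8 and 29.5 CPM in the controls and between 45.5 and 55.5 CPM after knockdown. RGMB was at 88.1 and 101 CPM against 130 to 165 CPM. TGIF1, also a co-repressor, was lower in value (-0.46 ± 0.26), but not at an unadjusted p under 0.05. Each of its knockdown samples was below both controls. By class, 14 of 21 TGF-β target genes were higher in value, with a median log2FC of 0.18, and 3 of 5 BMP target genes were lower, with a median of -0.46, against -0.04 for all genes. At the level of each shRNA the BMP targets had medians of -0.46 and -0.47, and the TGF-β targets 0.14 and 0.12. All were set against the same controls. Each BMP median, pooled or by shRNA, was the value of a single gene, RUNX2. ID4, MSX2 and HEY1 lay at 0.17 to 1.2 CPM. Set against sh-MIR100HG-1, 3 TGF-β targets were higher with sh-MIR100HG-2 and 2 lower at an unadjusted p under 0.05. Of all genes, 9.45% were at that p. CDKN1A had a log2FC of -0.17 with the first shRNA and 0.75 with the second, and SNAI2 0.42 and -0.77.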

How the data were processed

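RNA-seq was performed on 6 MDA-MB-231 samples. The authors trimmed barcodes, mapped reads to GRCh37 with STAR (the methods and the submitters' processing notes give different versions, the notes 2.5.2a), and deposited raw read counts per gene from FeatureCounts with GENCODE, not normalized. Strandedness and the handling of multi-mapped reads are not given in the sources used here. Groups were taken from the sample titles; the study names the knockdown replicates as biological, and for the sh-TRC samples the sources used here do not say, so that p-values may rest on technical spread there.

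As in the study's methods, a gene was left out when 3 or more of the 6 libraries had fewer than 5 reads for it. All 3 groups were fitted in 1 model with TMM and the quasi-likelihood test of edgeR 4.0.16 (R 4.3.3), two-sided, with Benjamini-Hochberg adjustment over 15372 genes; the residual degrees of freedom were 3 and the common biological coefficient of variation 27.8%. Alternatives were DESeq2 1.42.0, its size factors, the likelihood ratio test, no filter, 2 groups, a replicate block and leaving out each sample. The likelihood ratio test used glmLRT, the edgeR function that the study's methods name, although they describe it as quasi-likelihood. The quasi-likelihood and DESeq2 fits were tested on simulated counts. RPKM used the deposited union exon length, which understates genes with long rarely used 3′UTRs such as SMAD2. Gene symbols matched 26966 of 27745 identifiers.

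Members, lists and tests were chosen with earlier results of these data known. Named members were those at an unadjusted p under 0.05 in any comparison, those with all knockdown samples beyond both controls, and the 2 most abundant of each role. Python 3.11.15 counted the sequence matches.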

Additional observations from a re-analysis of the deposited data

How the results depend on the processing

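Calls depended on the test. Members called at an adjusted p of 0.05 went from 0 to 2 with DESeq2, 3 with the likelihood ratio test and 4 without the filter for both shRNAs, to 3, 2 and 4 for sh-MIR100HG-1, to 4, 4 and 4 for sh-MIR100HG-2, and to 1, 1 and 2 between the shRNAs. Of all genes, DESeq2 called 0.468% to 1.14% by comparison, the likelihood ratio test 0.221% to 0.787% and the unfiltered fit 1.06% to 3.18%. The cause was not tested. With DESeq2's size factors, a replicate block or any single sample left out, 0 were called in each comparison. TGFBR2 and ACVR2B were among those called for both shRNAs by DESeq2, by the likelihood ratio test and by the unfiltered fit.

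Members at an unadjusted p under 0.05 ranged, on leaving out single samples, from 4 to 12 for both shRNAs, 3 to 11 for sh-MIR100HG-1 and 4 to 9 between the shRNAs. For both shRNAs the count of 4 was without sh-TRC replicate 2 and comprised TGFBR2, ACVR2B, ID2 and ID3. For sh-MIR100HG-1 it was 3 without that sample, 4 without sh-MIR100HG-1 replicate 2 and 12 without the filter. Between the shRNAs it was 9 without the filter and 9 without sh-MIR100HG-2 replicate 2. The lone sample of a group was then assumed to vary like the others. With all knockdown samples as 1 group, INHBB (log2FC -0.60) and FSTL3 (-0.81) were no longer under an unadjusted p of 0.05.

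With a replicate block, 11 members had an unadjusted p under 0.05 for both shRNAs in place of 9, 9 in place of 7 for sh-MIR100HG-1, and 8 and 5 for the other comparisons. What samples with the same number share is not given in the sources used here. The correlations of their deviations were -0.205 for sh-TRC with sh-MIR100HG-1 and 0.006 for sh-TRC with sh-MIR100HG-2. Between sh-MIR100HG-1 and sh-MIR100HG-2 the correlation was 0.436, so same-numbered knockdown samples varied partly alike. The reason was not tested. No member with an unadjusted p under 0.05 for both shRNAs turned its direction in any alternative. Low counts limit LEFTY1, INHA, BMP6 and INHBE, and 2 samples per group limit all members.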
